A study of Arabidopsis thaliana with 14 samples.

Results

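Micropylar endosperm, the part of the seed's nutritive tissue that caps the root tip of the embryo, was set directly against peripheral endosperm, the neighbouring layer around the rest of the embryo. The comparison set 2 micropylar against 2 peripheral arrays, 4 of the 14 arrays of the study, chosen by their labels, and took its estimate of spread from all 14. All material was Arabidopsis thaliana of genotype Ws-0 at the mature green stage, from plants 38 to 46 days old grown in continuous light, with siliques 1.8 to 2.0 cm long. The groups were micropylar endosperm, peripheral endosperm, embryo proper, chalazal endosperm, chalazal seed coat and seed coat, each cut from fixed, paraffin-embedded sections by laser capture, and whole seeds. The labels call the whole seeds laser capture microdissected as well. Each group had 2 arrays that the labels call biological replicates. No group carried a mutation, transgene or treatment. From each sample 5 to 6 ng of RNA was amplified and hybridised to an ATH1 array, and the signal of a probe set is the brightness with which it reported its transcript.

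In the mature Arabidopsis seed the endosperm is thin and stores oil and protein, and the embryo fills most of the space. The micropylar endosperm lies in the path of the emerging root, and its cell walls are loosened before germination by enzymes and expansins, proteins that let wall polymers slip. The peripheral endosperm shares the storage role of the embryo and passes sugars from the maternal seed coat towards it.

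Within the endosperm, the cap carried far more transcript of a short set of genes. TBL36 belongs to the TRICHOME BIREFRINGENCE-LIKE family that acetylates wall polysaccharides, WES1 (also GH3.5) is an auxin-conjugating enzyme gene and EXPA4 an expansin gene. They were higher in micropylar endosperm by an estimated 66.3-fold, 79.9-fold and 7.82-fold. For TBL36 and WES1 the peripheral signals lay below 25 and were set to that floor. The transcription factor gene bZIP44 and iqd21, a gene of the calmodulin-binding IQ-domain family, were lower in micropylar endosperm by 4.31-fold and 7.99-fold. Most other genes could not be separated between the parts, and 28 probe sets were higher in both parts than in each of 4 other compartments, among them LBD16, XTH32, TET4, DI21 and SDT.

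The 4 arrays were alike as a whole. Over 22746 probe sets, log2 signals of the micropylar replicates correlated at r = 0.921 and those of the peripheral replicates at r = 0.936, while the 4 pairings of a micropylar with a peripheral array gave 0.899 to 0.923. The highest value between parts was thus as high as that between the micropylar replicates. Correlations of the 4 arrays with other compartments were 0.829 to 0.880 for chalazal endosperm, 0.809 to 0.859 for embryo proper, 0.706 to 0.743 for chalazal seed coat and 0.699 to 0.758 for seed coat. These points share arrays and are given as a description. Median signals were 141.3 and 134.0 on the micropylar arrays and 137.0 and 152.9 on the peripheral arrays, and 20.4% to 21.7% of probe sets lay below 25. That value was used as a floor, so a difference against a value at the floor understates the true one.

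Differences were log2 signal in micropylar minus log2 signal in peripheral endosperm, tested with limma over 14252 probe sets, and a probe set was called where the p-value adjusted by the Benjamini-Hochberg method was under 0.05. Limma called 43 probe sets, 0.302% of those tested. The 22 called higher in micropylar endosperm made up 0.154% and the 21 called lower 0.147%. Differences ran between 2.60 and 7.81 for those called higher and between -1.90 and -5.53 for those called lower, and 1079 probe sets (7.57%) had an unadjusted p under 0.05. With the 4 arrays alone limma called 0 probe sets, with 1479 at an unadjusted p under 0.05. Of the 43 calls 51.2% were higher in micropylar endosperm, a share that was 33.3% and 26.1% without micropylar arrays 1 and 2 and 42.1% and 75% without peripheral arrays 1 and 2. Of the 43, 23 were assigned to 1 gene, 19 to no gene and 1 to several. A difference of at least 1 between the 2-array means of the parts was seen for 2077 probe sets (14.6%). The single micropylar replicates differed from each other that much for 3044 (21.4%) and the peripheral replicates for 2239 (15.7%). Means of 2 arrays vary less than single arrays, so these shares do not show that the parts differed less than replicates. The 95% interval of the difference had a median half-width of 1.25, wider than the difference of 1 that stands for 2-fold.

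**Figure D1:**
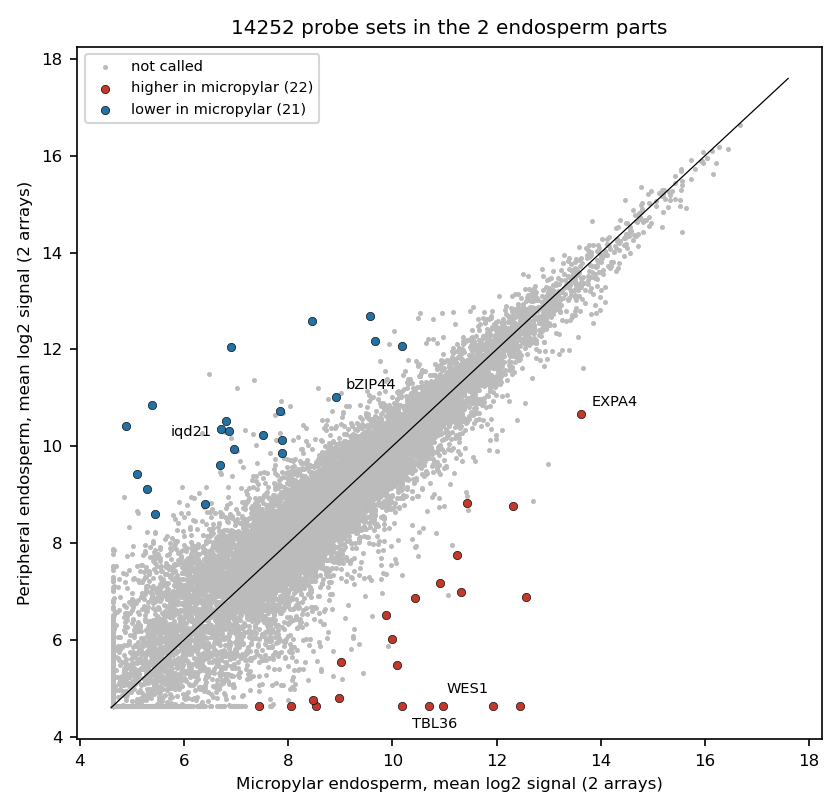
Mean log2 signal in micropylar endosperm (horizontal axis) and in peripheral endosperm (vertical axis) for 14252 probe sets, 2 arrays each with a floor of 25 on the signal. The line marks equal signal, and the 22 probe sets called higher (red) and 21 called lower (blue) in micropylar endosperm lie off the line.

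EXPA4 and TBL36, named as markers of micropylar endosperm, were both higher there. They were taken from earlier results of these data, so this is no check of the capture. TBL36 had signals of 2807 and 979.7 in micropylar endosperm, against 2.03 and 24.6 in peripheral endosperm. Both micropylar arrays were high and both peripheral arrays fell below the floor. The difference was at least 6.05 ± 0.69 (SE, n = 2 arrays a part, limma adjusted p = 4.9e-04). In captured tissue, fewer cells of a type and less RNA per cell cannot be told apart, here or in the results that follow. Outside the endosperm TBL36 reached 972.4 and 668.3 in embryo proper and stayed below 60 in the chalazal and seed coat compartments, with a highest signal of 55.8. It was the 1 called member of its family: 15 TBL genes were tested, their median difference was -0.37, and the other 14 lay between -1.70 and 0.78.

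EXPA4 had 13096 and 12267 in micropylar endosperm, against 1899 and 1384 in peripheral endosperm. The values did not overlap, and the difference was 2.97 ± 0.56 (limma adjusted p = 0.0274). The peripheral signals were in turn above those of every other compartment, where the highest was 930.7 in seed coat. By level EXPA4 was thus highest in micropylar and next in peripheral endosperm, though not every comparison of these parts with the other compartments was called. The call rested on all 4 arrays, since leaving out any 1 of them gave a limma adjusted p of 0.150 to 0.339. It was also lost without either whole-seed array (0.0626 and 0.0620), which enter only through the estimate of spread.

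Markers of other compartments were compared between the parts, since a captured section can carry neighbouring tissue. The embryo and chalazal markers were also taken from earlier results of these data, so their high level in their own compartment is no check. The embryo genes STOMAGEN, YAB3 and SNZ had signals of 2.24 to 71.6 in micropylar and 13.9 to 69.2 in peripheral endosperm, against means of 4047, 1767 and 445.5 in embryo proper. The fourth embryo marker, ATOEP16-2, was high in both parts, with 4599 and 3612 in micropylar and 4964 and 2694 in peripheral endosperm. Summed over the 4 markers, signal was 4749 and 3653 in micropylar and 5083 and 2746 in peripheral endosperm, against 20644 and 25573 in embryo proper. Summed over 6 seed coat markers it was 3316 and 3257 in micropylar and 3111 and 3503 in peripheral endosperm, against 28526 and 23512 in seed coat. Of these, the tannin genes BAN and DFR lay at 5.56 to 124.8 in micropylar and 2.55 to 72.6 in peripheral endosperm. Most of the seed coat marker sum in both parts thus came from the other markers of the list. Whether that signal was carried in from seed coat was not tested. The chalazal regulators NGA4, RR22 and HAT2 summed to 51.7 and 106.6 in micropylar and 14.9 and 158.7 in peripheral endosperm, against 34748 and 26052 in chalazal seed coat. None of these 13 markers was called between the parts, where 0.302% of all probe sets tested were called. With so small a share, a short list without a call does not show that the parts were alike. The same holds for the lists that follow.

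WES1, whose enzyme joins auxin to amino acids and so removes it from the active pool, had 2919 and 1368 in micropylar endosperm, against 4.16 and 5.10 in peripheral endosperm. Both peripheral arrays were at the floor, and the difference from it was 6.32 ± 1.16 (95% interval 3.87 to 8.77, limma adjusted p = 0.0259). WES1 was not particular to the cap in level: it reached 1809 and 465.9 in chalazal seed coat and 938.9 and 21 in seed coat. The 2 seed coat arrays lay far apart, and without seed coat array 1 or 2 the limma adjusted p was 6.3e-04 or 4.9e-04. Leaving out any 1 of the 4 endosperm arrays ended the call (0.107 to 0.350), as did leaving out either whole-seed array (0.0599 and 0.0594). The other auxin-linked genes tested, 6 of the IAA and GH3 families, had differences between -0.99 and 0.42, and none was called.

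The highest differences belonged to genes named only by locus, whose function the tables at hand do not give. AT5G01870 had 3377 and 9339 in micropylar endosperm, against 8.99 and 22.8 in peripheral endosperm. The gene was 225-fold over the floor (95% interval 4.76 to 10.86 on the log2 scale, limma adjusted p = 0.0259). It was also at 8053 and 5153 in embryo proper and 212.4 and 159.8 in chalazal endosperm, while its arrays disagreed in chalazal seed coat (7.79 and 1501) and seed coat (4647 and 140.4). AT1G04645 had 6340 and 2401 in micropylar endosperm, against 7.85 and 2.25 in peripheral endosperm, at least 156-fold (limma adjusted p = 0.00107). No array of another compartment exceeded 155.0 for it. AT1G09370 had 945.7 and 1259 in micropylar endosperm, against 5.80 and 80.9 in peripheral endosperm, and at most 82.7 on any array of another compartment (24.3-fold, limma adjusted p = 0.0101). AT4G13710 had 2943 and 2202 in micropylar endosperm, against 112.6 and 144.0 in peripheral endosperm, with seed coat at 1228 and 425.3 (20.0-fold, limma adjusted p = 0.00661). Of these 4, AT1G04645 alone kept its call without each of the 4 arrays (highest adjusted p 0.0397). AT5G01870 and AT4G13710 lost it without any 1 of them (highest 0.222 and 0.148), and AT1G09370 kept it only without peripheral array 2 (highest 0.150).

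**Figure D2:**
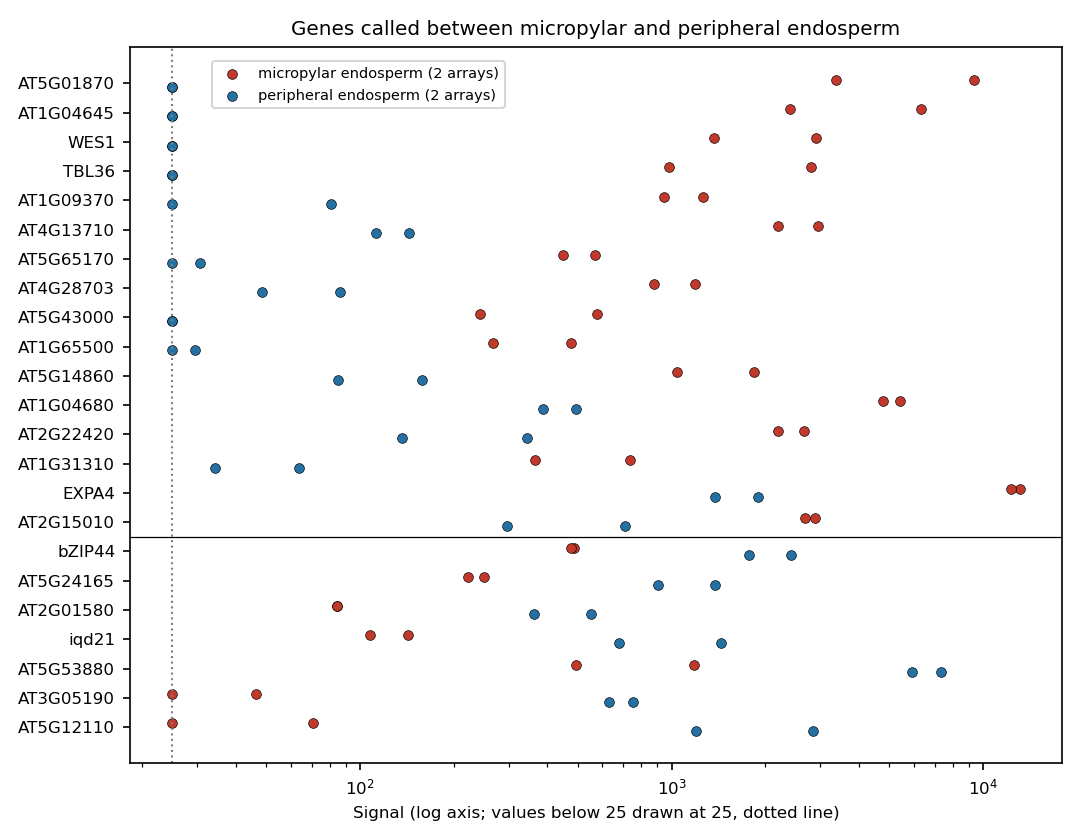
Signal on each array (log axis) for the 23 called genes on a probe set of their own, with micropylar endosperm in red above peripheral endosperm in blue and values under the floor drawn at 25. Genes above the line were higher and those below it lower in micropylar endosperm. In no gene do the 2 arrays of one part overlap those of the other, but the genes were selected by this same difference.

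Among the genes lower in the cap, bZIP44 had 485.0 and 477.5 in micropylar endosperm, against 1778 and 2421 in peripheral endosperm. The 2 micropylar arrays were close together and both were below both peripheral arrays, a difference of -2.11 ± 0.38 (limma adjusted p = 0.0259). bZIP44, a basic leucine zipper factor that activates a mannanase gene in germinating Arabidopsis seeds, peaked elsewhere, at 18430 and 26640 in chalazal seed coat. Of 9 bZIP genes tested it was the 1 called, and the intervals of 4 of the others, among them EEL and BZIP53, lay inside -1 to 1. iqd21 had 142.5 and 107.4 in micropylar endosperm, against 678.7 and 1440 in peripheral endosperm, 7.99-fold (limma adjusted p = 0.0259), and 3306 and 3179 in embryo proper. Both calls were lost without any 1 of the 4 arrays, with limma adjusted p of 0.110 to 0.331 for bZIP44 and 0.0628 to 0.413 for iqd21. Both were also lost without a whole-seed array (0.0578 to 0.0626), and iqd21 without an embryo array (0.050 and 0.0512).

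AT5G12110 had 16 and 70.7 in micropylar endosperm, against 1199 and 2851 in peripheral endosperm and 3614 and 1889 in embryo proper. One micropylar array was at the floor, and the difference was -5.46 ± 0.75 (limma adjusted p = 0.00251). AT3G05190 had 46.3 and 20.3 in micropylar endosperm, against 632.2 and 754.2 in peripheral endosperm, a difference of -4.34 ± 0.59 (limma adjusted p = 0.00248). AT5G53880 and AT2G01580 fell by 3.11 and 2.40 on the log2 scale (limma adjusted p = 0.0412 and 0.0259), with 492.5 and 1178 and with 84.5 and 84.7 in micropylar endosperm, against 5915 and 7313 and 551.6 and 361.3 in peripheral endosperm. AT5G53880 was highest in embryo proper and AT2G01580 in seed coat, at 6902 and 8050. AT5G12110 lost its call without micropylar array 1 (limma adjusted p = 0.0785) or peripheral array 2 (0.0958), and AT3G05190 without peripheral array 2 (0.0725). Without any 1 of the 4 arrays the calls of AT5G53880 and AT2G01580 were lost, with adjusted p of up to 0.495 and 0.253.

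The called probe sets were also ranked over the 6 compartments. Of the 22 probe sets called higher in micropylar endosperm, 13 (59.1%) had their highest level of the 6 compartments there, against 11.1% of all tested, and 8 (36.4%) had their lowest in peripheral endosperm, against 10.2% of all tested. Of the 21 called lower, 8 (38.1%) had their lowest level in micropylar endosperm, against 13% of all tested, while none had its highest level in peripheral endosperm, against 10.2% of all tested. Among the 4 compartments outside these 2 parts, embryo proper was the highest for 11 of those 21 (52.4%) and chalazal endosperm for 6 (28.6%), against 29.0% and 23.1% of all tested. The same 2 compartments were highest for 9 (40.9%) and 4 (18.2%) of the 22 called higher. These counts were made on genes selected by their difference between the parts and carry no test. Some of the 22, such as AT1G04645 and AT1G09370, also passed the filter on signal through the micropylar arrays alone. That favours a highest level there, so the 59.1% is partly set by the filter. Median signal of the 21 was 119.5 in micropylar and 1306 in peripheral endosperm, with 2475 in embryo proper and 1097 in chalazal endosperm.

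Of the probe sets with no gene in the tables, 3 that kept their calls without each of the 4 arrays were picked here after their values were seen. The first had 256.4 and 55.7 in micropylar endosperm, against 4583 and 3881 in peripheral endosperm and 47509 and 36880 in embryo proper (35.3-fold lower in the cap, limma adjusted p = 4.9e-04). The second had 300.7 and 410.2 in micropylar endosperm, against 4397 and 8560 in peripheral endosperm and 79626 and 43841 in embryo proper (17.5-fold lower, limma adjusted p = 4.2e-04). The third was on the higher side, at 7105 and 5134 in micropylar endosperm, against 165.3 and 84.0 in peripheral endosperm (51.3-fold, limma adjusted p = 4.2e-04). Both lower probe sets were highest in embryo proper. The summed embryo markers given above overlapped between the parts, with STOMAGEN, YAB3 and SNZ at most 71.6 and ATOEP16-2 at least 2694, and the part of embryo RNA in the result was not tested.

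**Figure D3:**
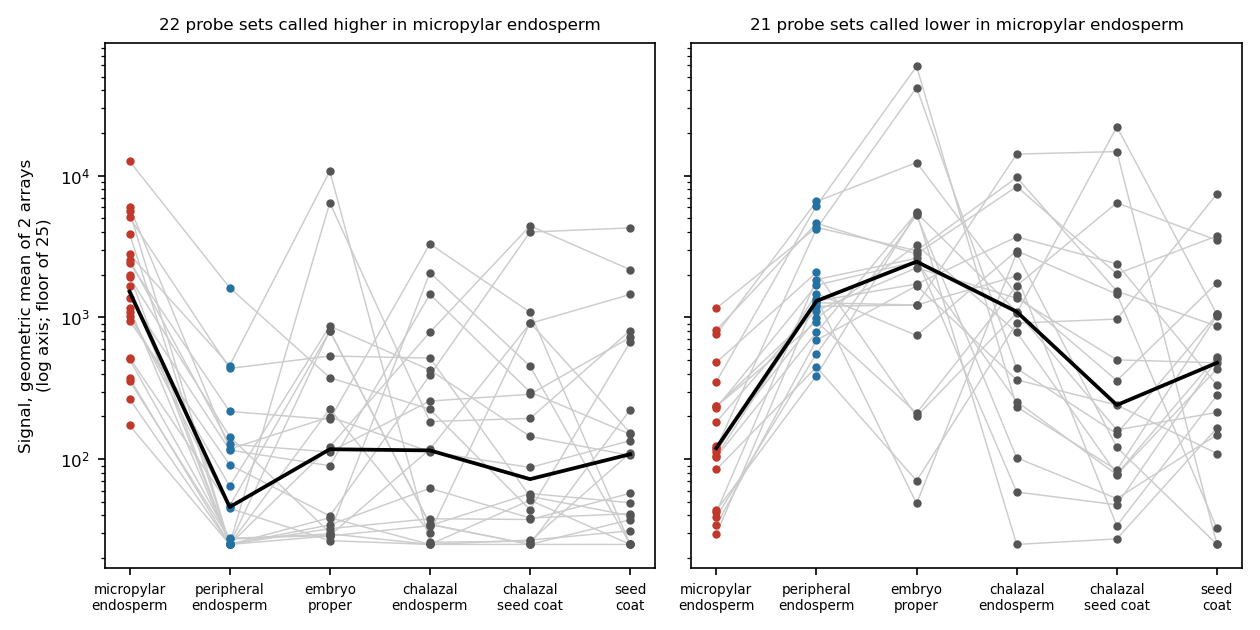
Signal (geometric mean of 2 arrays, log axis, floor of 25) in 6 compartments for the 22 probe sets called higher (left) and the 21 called lower (right) in micropylar endosperm, with grey lines joining each probe set and a black line at the median. On the right the median is 119.5 in micropylar and 1306 in peripheral endosperm and peaks in embryo proper at 2475.

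Among wall genes, EXPA4 was the 1 expansin called. Of 18 expansin genes on probe sets of their own, 8 were tested, 6 had positive and 2 negative differences, and EXPA4 alone had an unadjusted p under 0.05, with a median of 0.52 against -0.04 for all probe sets tested. After EXPA4 came EXPA20, at 911.9 and 787.8 in micropylar endosperm, against 228.7 and 469.3 in peripheral endosperm (1.37 ± 0.72, limma adjusted p = 0.753). EXPA15 and EXLA1 were abundant and near 0, at -0.13 and 0.04, with intervals of -1.25 to 1.00 and -1.02 to 1.1. The xyloglucan enzyme gene EXGT-A3 had 415.1 and 269.6 in micropylar endosperm, against 956.9 and 662.8 in peripheral endosperm (-1.25 ± 0.46, limma adjusted p = 0.458). The 4 tested pectin enzyme genes found by their symbol lay between -2.57 and -0.14, with 0 called and 2 at an unadjusted p under 0.05. Pectin enzyme genes named only by locus could not enter that list, so it does not stand for pectin enzymes as a whole.

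Tetraspanins, membrane proteins that organise other proteins into patches, were not called between the parts. Of 9 tested, 5 had positive and 4 negative differences with a median of 1.29, and 4 had an unadjusted p under 0.05, against 7.57% of all probe sets tested. TET3 had 4485 and 3094 in micropylar endosperm, against 1055 and 896.3 in peripheral endosperm (1.94 ± 0.43, limma adjusted p = 0.0806). TET8 had 432.2 and 781.6, against 227.3 and 164.9 (1.59 ± 0.44, adjusted p = 0.190). TET4, TET15 and TET2 lay at 1.54, 1.29 and 1.29, whereas TET5, TET7, TET10 and TET11 lay between -0.88 and -0.43.

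Sugar exporters of the SWEET family, which release sucrose from seed coat and endosperm towards the embryo, were not called either. Of 7 tested, 2 had positive and 5 negative differences, with a median of -0.09 against -0.04 for all probe sets tested. SWEET11 had 861.6 and 2379 in micropylar endosperm, against 5214 and 8040 in peripheral endosperm, which missed the threshold (-2.18 ± 0.45, limma adjusted p = 0.0557). SAG29, also SWEET15, had 390.5 and 536.8 in micropylar endosperm, against 1284 and 2218 in peripheral endosperm (-1.88 ± 0.44, limma adjusted p = 0.1). In both the micropylar arrays were below both peripheral arrays. SWEET7 was near level in the parts, at 2683 and 2514 in micropylar and 2955 and 2499 in peripheral endosperm, with a difference of -0.07 and an interval of -0.92 to 0.79. SWEET4 and SWEET10 were at most 49.2 on any of the 4 arrays.

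Nuclear genes of the photosynthetic apparatus had negative differences without passing the test. All 7 tested had negative differences, from -1.19 to -0.27 with a median of -0.58, 0 were called and 2 had an unadjusted p under 0.05. RCA, which activates Rubisco, had 406.6 and 494.2 in micropylar endosperm, against 1137 and 918.6 in peripheral endosperm (-1.19 ± 0.39, limma adjusted p = 0.346). The photosystem I gene PSAE-1 had 2462 and 4167, against 5225 and 6246 (-0.83 ± 0.34, adjusted p = 0.535). Of 69 transcripts of the chloroplast genome, 50 were higher and 19 lower in micropylar endosperm, with a median of 0.12. For 46 (66.7%) the interval lay inside -1 to 1, against 11.1% of all tested. The 69 were also far more abundant, with median signals of 12137 in micropylar and 9608 in peripheral endosperm. For all tested these medians were 377.3 and 391.4, and the part of signal level in the 66.7% was not tested.

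No gene listed for storage, drying or cell death was called between the parts, against 0.302% of all probe sets tested. Of 5 genes listed as storage proteins, 4 had an interval inside -1 to 1. PAP85, a vicilin-like storage protein gene, had 24113 and 24628 in micropylar endosperm, against 23394 and 24251 in peripheral endosperm. AT1G03890, of the same list, had 2421 and 1128 in micropylar endosperm, against 7384 and 3056 in peripheral endosperm (-1.52 ± 0.64, limma adjusted p = 0.560). The oil body gene OLEO3 had 28178 and 34099 in micropylar endosperm, against 30529 and 36476 in peripheral endosperm. Of 15 late embryogenesis abundant genes, whose proteins guard cells during drying, 9 were higher and 6 lower with a median of 0.57 and 0 called. The vacuolar processing enzyme genes BETA-VPE and GAMMA-VPE differed by 0.10 and 0.27 and ALPHA-VPE by -0.79, and AT4G01610, listed among cell death proteases, was highest of that list at 1.33 ± 0.38 (limma adjusted p = 0.238).

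**Figure D4:**
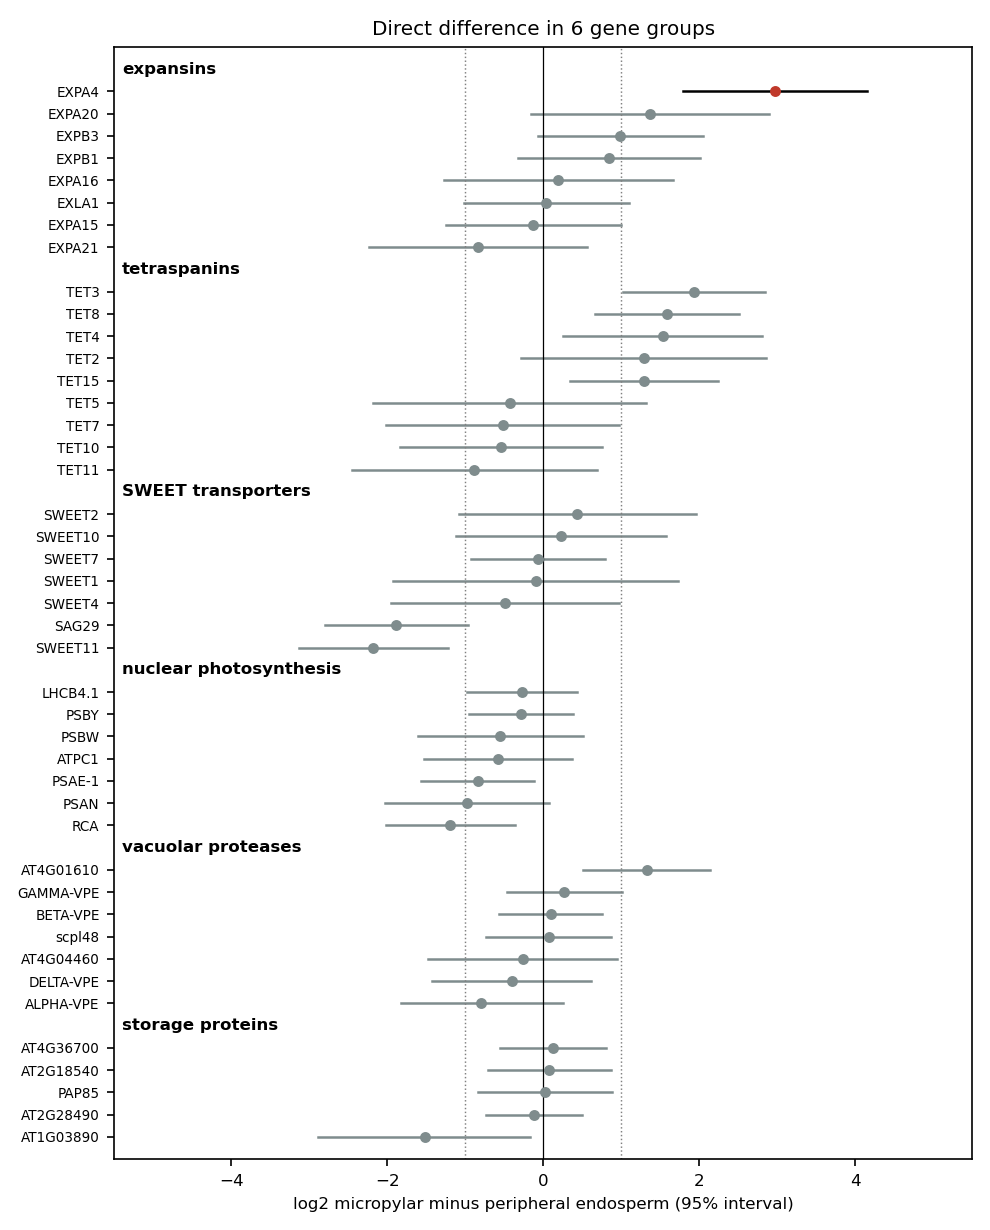
Difference in log2 signal, micropylar minus peripheral endosperm, with its 95% interval for every tested member of 6 gene groups; dotted lines mark -1 and 1. EXPA4 (red point, black line) is the 1 called gene, the 5 highest tetraspanins lie at or above 1.29, all 7 nuclear photosynthesis genes lie below 0, and SWEET11 and SAG29 are the lowest transporters.

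What the parts had in common against the rest was read from 8 comparisons, each part against embryo proper, chalazal endosperm, chalazal seed coat and seed coat. Limma called 11.9%, 7.77%, 30.3% and 27.4% of probe sets for micropylar endosperm against these 4 in that order, and 9.56%, 5.54%, 31% and 26.9% for peripheral endosperm. A probe set counted as shared where all 8 gave a call with a log2 difference of 1 or more, all of the same sign. By that rule 28 were higher (0.196% of those tested) and 7 lower (0.0491%) in both parts. The mean of both parts against the mean of the 4 others was called for 26.8%, with 13.6% higher and 13.2% lower. The 8 comparisons share arrays, so each gene's values are given side by side. None of the 35 was called between the parts, where 0.302% of all probe sets tested were called. With so small a share this does not show that the 35 were alike in the parts. The difference between the parts ran from -0.75 to 2.03 for the 28, and its interval lay inside -1 to 1 for 4 of the 35.

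LBD16, a transcription factor gene that responds to auxin and starts lateral roots, was the steepest of those with a symbol. It had 3688 and 3519 in micropylar and 3414 and 3223 in peripheral endosperm, against 404.4 and 15 in embryo proper and at most 445.1 on any array of the other compartments. The mean of both parts was 5.06 ± 0.56 above the mean of the 4 others on the log2 scale (limma adjusted p = 8.3e-06), and the parts differed by 0.12 with an interval of -1.81 to 2.04. XTH32, which cuts and rejoins xyloglucan in walls, had 2400 and 2743 in micropylar and 3460 and 3714 in peripheral endosperm, against at most 564.6 elsewhere, with a shared difference of 4.84 ± 0.37 (limma adjusted p = 2.8e-07). It met the rule of 8 comparisons without each of the 14 arrays, whereas LBD16 met it in 8 of those 14 repeats and in none of the 4 without an endosperm array.

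TET4, DI21 and SDT were also shared. TET4 had 4010 and 3593 in micropylar and 1650 and 1037 in peripheral endosperm, against at most 360.9 elsewhere (shared difference 4.92 ± 0.37). DI21, a drought-induced gene, had 12206 and 13559 in micropylar and 3806 and 2620 in peripheral endosperm, against at most 805.5 elsewhere (3.89 ± 0.28). Between the parts DI21 differed by 2.03 with an interval of 1.07 to 2.98, which missed the threshold (limma adjusted p = 0.0848). SDT, the enzyme gene that attaches sinapoyl groups to spermidine in seeds, had 14693 and 12019 in micropylar and 7652 and 8248 in peripheral endosperm, against at most 2603 elsewhere (3.18 ± 0.26). TET4 and SDT met the rule of 8 comparisons in 2 and DI21 in 3 of the 4 repeats without an endosperm array, and 6 of all 35 met it in each of the 4. For 4 of the 28, DI21 and TET4 among them, the interval between the parts left out 0.

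Among genes without a symbol, AT3G29190 had the largest shared difference, 6.33 ± 0.49, with 4997 and 5284 in micropylar and 8268 and 4482 in peripheral endosperm, against at most 755.3 elsewhere. AT4G38410, from the list of late embryogenesis abundant genes, followed at 6.20 ± 0.38, with 13102 and 11679 in micropylar and 11738 and 4351 in peripheral endosperm, against 99.7 and 152.5 in embryo proper. LEA, of the same list, was abundant in both parts but higher in level in embryo proper, at 21118 and 15983 in micropylar and 26293 and 15823 in peripheral endosperm, against 46953 and 53320 in embryo proper. AT3G59850 and AT3G17640 were higher by 5.04 ± 0.38 and 4.28 ± 0.36, though AT3G17640, like the low gene AT1G73120, met the rule in 0 of the 4 repeats without an endosperm array. On the low side, AT1G73120 was under the floor on all 4 arrays, at 4.84 to 11, against 1825 and 1127 in embryo proper and 7928 and 2795 in chalazal endosperm. AT5G07820 had 40 and 69.7 in micropylar and 30.8 and 3.48 in peripheral endosperm, against 434.4 to 1407 on the 8 arrays of the other compartments.

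**Figure D5:**
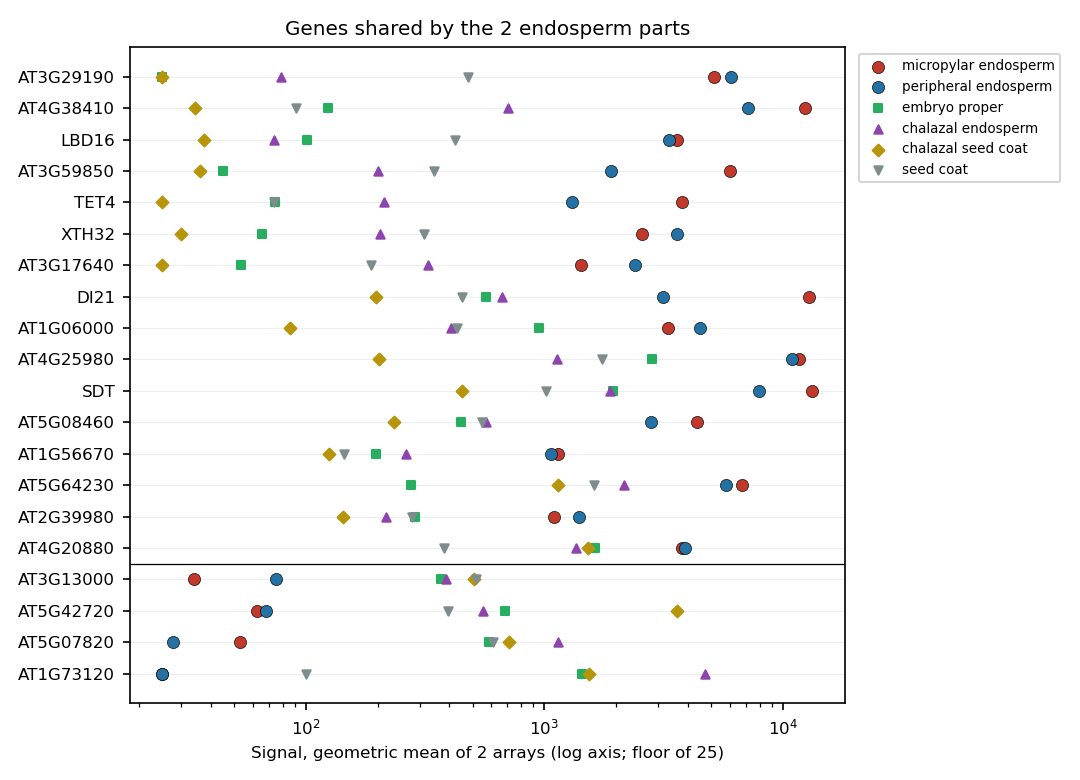
Signal (geometric mean of 2 arrays, log axis, floor of 25) of the 20 shared genes on a probe set of their own in micropylar (red) and peripheral endosperm (blue) and in 4 other compartments. Above the line both parts exceed all 4 others, and below it both fall short of them; DI21, AT3G59850 and TET4 show the widest gap between the parts.

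Some abundant transcripts had intervals that lay within 2-fold between the parts. Limma gave 1584 probe sets (11.1%) whose interval for the direct difference lay inside -1 to 1. The 8 most abundant genes with a symbol among them, alike by that selection, were the chloroplast genes psbF, psaB, psbA, psbB, psbD, rbcL and psbC, of the photosystems and Rubisco, and the nuclear gene LCR69, of the cysteine-rich defensin-like family. LCR69 had 70954 and 72872 in micropylar endosperm, against 73068 and 67558 in peripheral endosperm, an interval of -0.76 to 0.83. rbcL had 35721 and 40866 in micropylar endosperm, against 40928 and 39247 in peripheral endosperm. Taken 1 at a time, such 95% intervals leave out a difference in signal of 2-fold or more and say nothing of smaller ones. The genes were selected by these same intervals, so the 95% level does not hold for the selected set.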

How the data were processed

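Per the labels' protocols, RNA was amplified with the WT-Ovation Pico system and labelled with biotin. The authors deposited intensity values (linear signals) of 22810 probe sets on 14 arrays. Per the submitters' processing notes GCOS was used; no source used here gives its settings. The 2% trimmed mean was 499.8 on every array. After leaving out 64 controls, 13513 probe sets had 1 gene in the platform table, 503 several and 8730 none. Symbols came from RefSeq (TAIR10.1).

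Signals below 25 were set to 25. limma (3.58.1, R 4.3.3; lmFit, then eBayes with trend) was fitted to all 14 arrays with 1 mean per group (7 residual degrees of freedom) over probe sets above their array's median on both arrays of at least 1 group. p-values were adjusted by the Benjamini-Hochberg method. With 2 arrays a part, their number limits precision: on simulated data for this comparison over 14252 probe sets, 42% of genes changed by 2 and 79% changed by 3 on the log2 scale were called, with 10 false calls. Tables and plots used Python 3.11.15.

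The members and lists were chosen with earlier results of these data known. Lists held 346 loci, of which 92 had a probe set of their own, so many wall and hormone genes were not analysed here. Named genes were EXPA4, TBL36, called or shared genes with a symbol, the 4 highest and 4 lowest called and the 4 highest and 2 lowest shared genes without one, called list members, and the 8 most abundant alike; other genes were picked from the lists after their values were seen. Replicate numbers did not pair the arrays (correlations of deviations -0.037 to 0.062 over 21 pairs of groups).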

Additional observations from a re-analysis of the deposited data

How the results depend on the processing

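The number of calls between the parts moved with the setting. All 43 kept their sign under each alternative in which they were tested, but this was largely set in advance. In all 43 both arrays of 1 part lay beyond both of the other, so leaving out an array could not turn a sign. A change of filter or intensity trend leaves the difference itself as it was. Against 43, limma called 88 with a floor of 100, 20 with no floor, 18 with no filter, 26 with no intensity trend and 25 without the whole-seed arrays. With the 4 arrays alone it called 0, with 1479 at an unadjusted p under 0.05. Leaving out 1 array gave 8 to 59 calls. The lowest counts came without peripheral arrays 2 (8) and 1 (19), micropylar arrays 1 (12) and 2 (23) and whole-seed arrays 1 (24) and 2 (25), and 5 of the 43 were kept without each of the 4 endosperm arrays. With the replicate block 51 were called, 42 of them among the 43. Shared probe sets numbered 35, and 62 with a floor of 100, 18 with no filter and 57 with hybridisation control scaling. Leaving out 1 array gave 10 to 45, with 10 and 14 without peripheral arrays 1 and 2, 20 and 21 without micropylar arrays 1 and 2 and 23 without chalazal endosperm array 2. The mean of both parts against the mean of the 4 others gave 3822 calls, and with 1 array left out 2497 (without peripheral array 1) to 4051. Hybridisation control scaling moved the median difference between the parts from -0.04 to -0.23, so small negative differences are relative to that shift; EXPA4 then missed the threshold (limma adjusted p = 0.0532). EXPA4 also missed it with no floor, no filter and no intensity trend (0.0653 to 0.146). The causes of these changes were not tested.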
